A study of Homo sapiens with 4 samples.

Results

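The 34 interferon response genes described here are sensors, signalling factors and effectors of the innate antiviral response, taken from a fixed list of gene symbols. The table of total RNA after a mimic held 33 of them among 16448 genes, and 30 reached at least 20 reads in its 2 libraries together, out of 14787 genes that did. The pulldown table held 19 of them among 10662 genes, and 10 reached that minimum, out of 6253. The study compared ways of finding the RNAs that the microRNA miR-34a acts on, in HEK293T, an established human line derived from embryonic kidney. Its 4 groups were total RNA of cells given a miR-34a mimic, total RNA of cells given the control mimic named NC, RNA recovered with biotin-labelled miR-34a, and RNA recovered with the NC control, with 1 library each. A mimic is a synthetic RNA duplex, so the control cells also received one, and a response common to both mimics cannot be told apart from the resting state of the cells: no untreated library was analysed here. The sources used here do not give the sequence of the control, the dose or the time after transfection.

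Cells recognise double-stranded RNA through the cytosolic helicases RIG-I (gene DDX58) and MDA5 (IFIH1) and the endosomal receptor TLR3, which through adaptors such as MAVS switch on the transcription factors IRF3 and NF-kB. The interferon made in this way acts on its receptor, and a complex that holds STAT2 and IRF9 then raises the effector genes, among them the IFIT, OAS, MX and IFITM families. HEK293 cells are known to carry RIG-I and MAVS but to hold little of several Toll-like receptors and of the cytosolic DNA sensing route, and the list was drawn up to ask whether the synthetic duplex gave an innate response.

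The sequences that bear on this question are the microRNA itself and the element through which the interferon factors act. The labels name miR-34a without an arm; the 5p strand, the one usually meant, is encoded on the minus strand of chromosome 1 (chr1:9151735-9151756, GRCh38.p14, RefSeq), and its seed, bases 2 to 8, is in capitals.
hsa-miR-34a-5p: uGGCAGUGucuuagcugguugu
The interferon-stimulated response element was searched on either strand as its core, GAAA, any 2 bases and GAAA, in RefSeq promoters (250 bases before to 50 after the start site; GRCh38.p14). 26 of the 34 genes were matched to a promoter and 20 of the 26 held the core (76.9%), against 3.57% of all 35116 promoters. The windows below are those of the genes called in the mimic comparison, read along the gene's strand with the core in capitals; the 2 windows of BST2 overlap, and in MX1 the core lies on the opposite strand and the start site used by the promoter table lies inside the annotated gene.
BST2, first core (chr19:17405741-17405770, minus strand): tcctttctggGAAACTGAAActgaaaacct
BST2, second core (chr19:17405735-17405764, minus strand): ctgggaaactGAAACTGAAAacctaattaa
IFITM1, first core (chr11:313990-314019, plus strand): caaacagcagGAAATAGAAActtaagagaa
IFITM1, second core (chr11:314024-314053, plus strand): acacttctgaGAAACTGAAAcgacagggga
MX1 (chr21:41431844-41431873, plus strand): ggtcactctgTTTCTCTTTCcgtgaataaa
The same letters therefore stand before genes whose reads differed in opposite directions. The shorter GAS core TTCNNNGAA, bound by STAT dimers, was in 8 of the 26 promoters (30.8%) and in 7.66% of all; it overlaps the response element in BST2, IFITM1, MX1 and IFI27. A match describes these letters in this window and is not a measured site.

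With the miR-34a mimic, 2 of the 30 genes with enough reads were higher than with the control mimic, BST2 and IFITM1, and 1 was lower, MX1. A gene is called here where its ratio is at least 1.5-fold and the 95% counting interval of the ratio excludes 1. By that rule 6.8% of all 14787 genes tested were called higher and 2.45% lower, so the shares among the 30, 6.67% and 3.33%, lay near those of all genes. The median log2 ratio of the 30 was 0.22, against 0.00 over all genes, or 0.13 with the transcript of most reads in place of each sum, and 19 of the 30 ratios were above 0 (63.3%, against 49.6% of all genes). Counting any ratio whose interval excludes 1, whatever its size, 12 of the 30 were higher and 5 lower, or 40.0% and 16.7%, against 25.3% and 23.1% of all genes. For 26 of the 30 the upper end of the interval lay below a 2-fold rise, and for 23 both ends lay within 2-fold. The summed reads of the 33 listed genes came to 944 CPM (reads scaled to library size with TMM factors) in the control library and 1066 in the miR-34a library. Each group is 1 library, so the differences have no replicate check and carry no p-value; in such bulk RNA, more cells of a kind and more RNA per cell cannot be told apart.

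**Figure D1:**
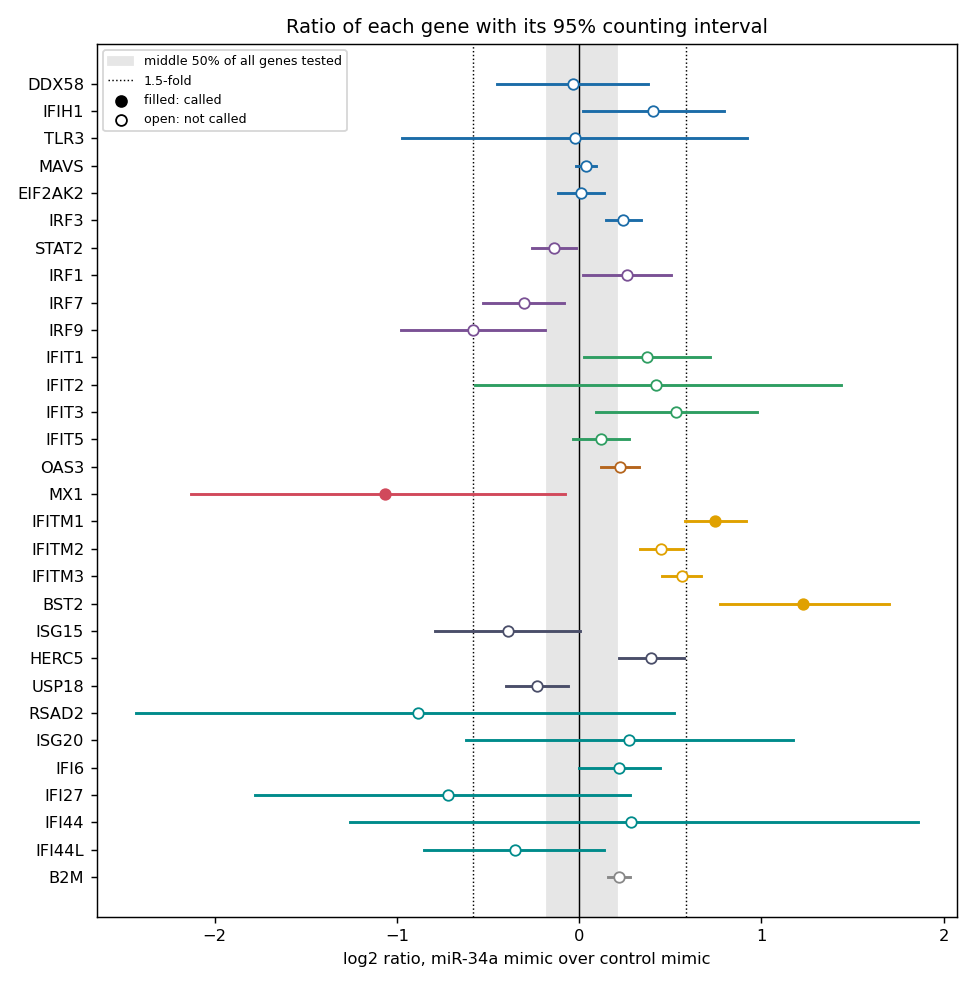
Log2 ratio of miR-34a mimic over control mimic for the 30 genes with at least 20 reads; points are ratios of TMM-scaled reads, bars the 95% counting intervals, filled points the 3 genes called, colours the groups used in the text and the grey band the middle 50% of all genes. Most points lie between the dotted lines at 1.5-fold, with BST2 (1.23) and IFITM1 (0.75) to the right and MX1 (-1.07) to the left.

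All directions are relative to the median gene. On the deposited RPKM scale each log2 ratio of the mimic comparison is lower by a constant 0.64, which moves the median of all genes to -0.65 and that of the 30 interferon response genes to -0.42; the order of the genes stays as it is. On that scale BST2 (0.58) and IFITM1 (0.10) were the members that remained above 0.

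The sensors and relays of double-stranded RNA were the group with the median nearest 0, although 2 of the 6 were higher beyond counting error. DDX58, which encodes the helicase RIG-I, had 210 reads in the control and 189 with miR-34a (log2 ratio -0.04, with the 95% counting interval in brackets here and below, [-0.45 to 0.38]), and TLR3 had 44 and 40 reads (-0.02 [-0.97 to 0.92]). IFIH1, the MDA5 helicase, had 207 and 253 reads (0.41 [0.02 to 0.80]), short of 1.5-fold. Both helicase genes are themselves interferon-inducible. MAVS, the mitochondrial adaptor of both helicases, had 11293 and 10694 reads, and its ratio of 0.04 has the narrowest interval of the 30 genes, -0.02 to 0.09. EIF2AK2, the kinase PKR that halts translation on binding double-stranded RNA, had 2081 and 1932 reads (0.01 [-0.12 to 0.14]). IRF3, the factor that MAVS and TLR3 signalling activate, stood at 3391 and 3698 reads (0.24 [0.15 to 0.34]). None of these 6 genes was called, and their median was 0.02. A lack of change in RNA says nothing of the phosphorylation that activates IRF3 or PKR.

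Of the transcription factors, 3 had ratios below 0 and 1 above, and none was called. IRF9, the DNA-binding part of the interferon-stimulated complex, had 287 reads in the control and 177 with miR-34a (-0.58 [-0.98 to -0.19]), just short of 1.5-fold; the nearest gene to that line on the other side is IFITM3, at 0.56. On library totals without TMM factors the IRF9 ratio was -0.61. It was -0.59 with totals and factors taken from each gene's transcript of most reads. Both values pass that line, through scaling only, since IRF9 has 1 listed transcript. STAT2, its partner, had 2369 and 1985 reads (-0.14 [-0.26 to -0.02]), and IRF7, the amplifier of interferon production, 792 and 592 (-0.30 [-0.53 to -0.08]). IRF1, a factor raised mainly by interferon gamma and NF-kB, had 545 and 603 reads (0.26 [0.02 to 0.50]).

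The IFIT genes encode proteins that bind foreign RNA ends, and all 4 had ratios above 0 relative to the median gene. On the deposited RPKM scale each lay below 0, and so did the median of all genes, at -0.65. IFIT3 had 156 control and 208 miR-34a reads (0.53 [0.09 to 0.97]) and IFIT1 264 and 315 (0.37 [0.03 to 0.72]). IFIT2 had 34 and 42 reads (0.42 [-0.57 to 1.44]) and IFIT5, the member with most reads, 1379 and 1383 (0.12 [-0.03 to 0.28]). None reached 1.5-fold. The reads of IFIT1 were spread over 5 transcripts, of which 4 had more reads with the mimic and NM_001548 had fewer, 74 and 63. The annotated span of LIPA, a lysosomal lipase gene on the opposite strand, covers IFIT1, IFIT2 and IFIT3 whole; LIPA itself had 2631 and 2687 reads (0.15), and without known strand handling reads of overlapping genes cannot be told apart.

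The OAS enzymes make the 2-5A signal that activates RNase L, and the MX proteins are antiviral GTPases. OAS3 had 2867 control and 3085 miR-34a reads (0.22 [0.12 to 0.33]). The other OAS genes were close to absent: OAS1 had 2 and 0 reads, OAS2 4 and 4, and OASL 6 and 2, too few for a ratio. MX1 had 59 reads in the control and 26 with miR-34a, or 1.29 and 0.614 CPM (-1.07 [-2.13 to -0.08]). It was the only member called lower, from few reads, and its call was lost with a 99% interval. MX1 lies on chromosome 21 (chr21:41420558-41459214). Its 3 listed transcripts had 24 and 12, 7 and 6, and 28 and 8 reads. The first and the last tie for most reads, and their ratios, -0.88 [-2.58 to 0.64] and -1.69 [-3.75 to -0.02], fall on different sides of the call. MX2 had no row in the mimic table.

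The genes of membrane restriction factors, proteins that hold virus particles at or inside membranes, were the group with the highest median, 0.66. On the deposited RPKM scale it was 0.01, against -0.65 for all genes. BST2 encodes tetherin, which keeps budding virus on the cell surface, and lies on chromosome 19 (chr19:17402939-17405630). It had 118 reads in the control and 255 with miR-34a, or 2.57 and 6.03 CPM, and was 2.34-fold higher (1.23 [0.77 to 1.70]), at percentile 97.3 of all genes tested. IFITM1, which blocks fusion at the cell surface (chr11:314040-315272), had 987 and 1528 reads, or 21.5 and 36.1 CPM, 1.68-fold higher (0.75 [0.58 to 0.91]; percentile 93.4). The neighbouring IFITM3, which acts in endosomes, had 2479 and 3378 reads (0.56 [0.46 to 0.67]), and IFITM2 2080 and 2623 (0.45 [0.33 to 0.57]). Both stayed under 1.5-fold, and on the deposited RPKM scale they lay at -0.08 and -0.19. By its transcript of most reads alone IFITM3 was called higher, at 0.61. The IFITM genes are close copies in 1 cluster on chromosome 11, so reads may have been shared among them and their separate values are uncertain; IFITM3-AS1 also covers IFITM3 whole.

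Ubiquitin-like ISG15 and the enzymes that attach and remove it did not move together. ISG15 had 260 control and 183 miR-34a reads (-0.39 [-0.79 to 0.01]), and HERC5, the ligase that attaches it, 943 and 1143 (0.39 [0.22 to 0.57]). USP18, which removes it and restrains the interferon receptor, had 1310 and 1030 reads (-0.23 [-0.40 to -0.06]); it has near-identical copies, and its counts are uncertain. None of the 3 was called. Of the remaining effectors, 3 had ratios above 0 and 3 below, with intervals that all include a ratio of 1. RSAD2, the antiviral enzyme viperin, had 28 and 14 reads (-0.88 [-2.43 to 0.52]) and IFI27, a mitochondrial protein often used to read out interferon, 50 and 28 (-0.72 [-1.78 to 0.28]). IFI44L had 169 and 122 reads (-0.35 [-0.85 to 0.14]) and its relative IFI44 16 and 18 (0.29 [-1.26 to 1.86]). The nuclease gene ISG20 had 44 and 49 reads (0.27 [-0.62 to 1.17]). IFI6, an inhibitor of apoptosis, had 655 and 704 reads (0.22), with an interval of 0.00 to 0.44 whose lower end is just under 0. B2M, the light chain of class I molecules, had 8179 and 8784 reads (0.22 [0.16 to 0.28]).

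**Figure D2:**
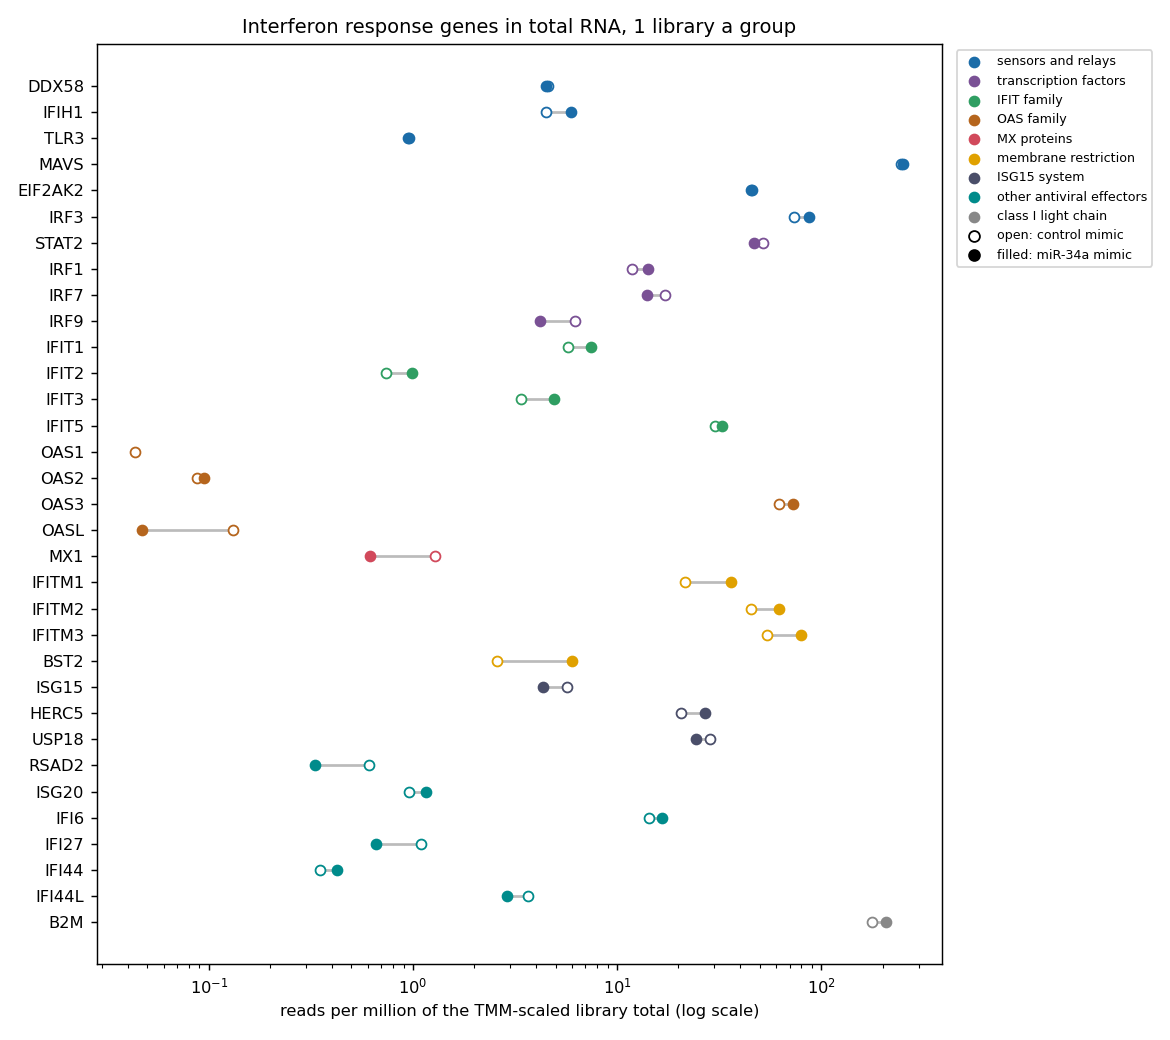
TMM-scaled CPM (log axis) for the 33 listed genes in the control mimic (open) and miR-34a mimic (filled) libraries, joined by a line; OAS1 has no filled point because it had 0 miR-34a reads. Values are not per length, so only points in the same row can be compared; the widest gaps among genes with at least 20 reads are those of BST2 and MX1.

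The ratios of genes with and without the response element were set side by side, and the difference was not tested. The 20 tested genes with the core had a median log2 ratio of 0.22 and ranged from -1.07 to 1.23. By the 1.5-fold rule 2 were called higher and 1 lower, and with no fold threshold 9 higher and 1 lower. Of all genes 6.8% were higher and 2.45% lower by the 1.5-fold rule, and 25.3% and 23.1% with no fold threshold. The 5 tested genes with a promoter but without the core, DDX58, MAVS, STAT2, IRF1 and IRF9, had a median of -0.04 and ranged from -0.58 to 0.26, with 0 called by the 1.5-fold rule and, with no fold threshold, 1 higher and 2 lower. The 7 tested genes with the GAS core had a median of -0.02, and the 18 with a promoter but without it 0.22. By the 1.5-fold rule 2 of the 7 were called higher and 1 lower, and 0 of the 18 in either direction. With no fold threshold 3 of the 7 were higher and 2 lower, and of the 18, 7 and 1. That difference was not tested either.

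**Figure D3:**
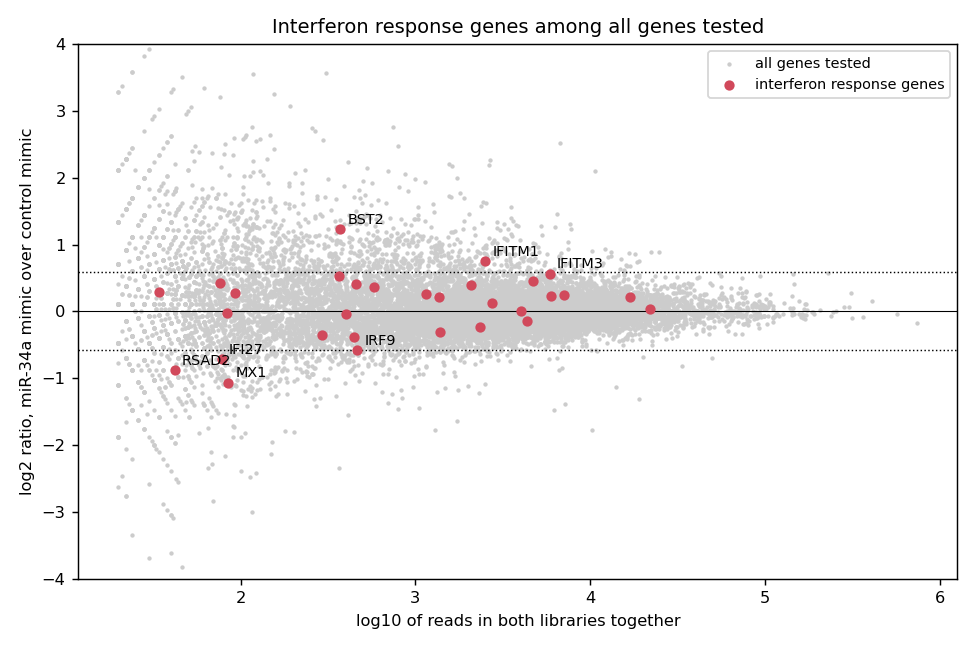
Log2 ratio of miR-34a mimic over control mimic against the log10 of reads in both libraries together for all 14787 genes tested (grey) and the 30 interferon response genes (red), with dotted lines at 1.5-fold; 10 genes with ratios beyond 4 are not drawn. The red points lie within the grey cloud at each read depth, BST2 above and MX1 below most grey points.

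Interferon ligands were barely seen. Of 21 ligand genes 2 had a row, IFNE with 4 and 0 reads and IFNA5 with 2 and 0; IFNB1 had none. A row needs at least 1 control read, so a gene that was at 0 in the control and appeared with miR-34a is not listed, and such a gain was not analysed here. CXCL10, a chemokine gene that interferon raises strongly, had no row either, and CXCL11 had 2 and 2 reads. Receptors, JAK kinases and their restraints had 1 of 16 genes called higher (6.25%, against 6.8% of all genes) and 0 lower (against 2.45%). Their median was -0.09. The 1 was SOCS3, a feedback inhibitor of cytokine receptors, with 1145 and 2040 reads (0.95 [0.80 to 1.10]); SOCS1 had 100 and 58 (-0.67).

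A second list of interferon-stimulated genes had 4 of 47 called higher (8.51%, against 6.8% of all genes) and 0 lower (against 2.45%). Its median was -0.05. The 4 were GBP3, a guanylate-binding GTPase, with 13 and 68 reads (2.50 [1.27 to 3.98]), its relative GBP2 with 47 and 81 (0.90), the lysosomal reductase gene IFI30 with 1345 and 1979 (0.67) and UBE2L6, the conjugating enzyme for ISG15, with 136 and 190 (0.60). RNA sensing relays had 1 of 26 called higher (3.85%) and 0 lower (median -0.03). The 1 was the TLR3 adaptor gene TICAM1 with 629 and 957 reads (0.72 [0.51 to 0.93]). Cytosolic DNA sensing genes had 0 of 7 called in either direction (median -0.16); with no fold threshold 2 were higher and 1 lower.

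Antigen presentation and NF-kB genes stood higher relative to the median gene. Of 19 antigen presentation genes 17 had ratios above 0, with a median of 0.35, or -0.29 on the deposited RPKM scale. By the 1.5-fold rule 3 were called higher (15.8%, against 6.8% of all genes) and 0 lower (against 2.45%). The 3 were NLRC5, the activator of class I genes, with 215 and 379 reads (0.93 [0.59 to 1.29]), HLA-B with 2539 and 4305 (0.88 [0.78 to 0.98]) and HLA-F with 474 and 801 (0.87); class I genes are alike and varied in sequence, so reads may be assigned among them with error. Of 19 NF-kB targets and inflammatory cytokines 8 were called higher (42.1%, against 6.8% of all genes) and 0 lower. Their median was 0.50, or -0.15 on the deposited RPKM scale, against -0.65 for all genes on that scale. The 4 farthest from 0 were the chemokine genes CXCL8, with 36 and 222 reads (2.74 [2.02 to 3.55]), and CCL2, with 26 and 103 (2.10 [1.20 to 3.11]), the cytokine gene IL1A, with 4 and 20 (2.44 [0.21 to 5.67]), and the adhesion gene ICAM1, with 217 and 695 (1.80 [1.48 to 2.12]). RELB, TNFAIP2, NFKB2 and NFKBIA, parts or targets of NF-kB signalling, were the other 4, between 0.62 and 1.40. IL6 had 8 and 2 reads and TNF 12 and 10. The difference between these lists and the interferon response genes was not tested.

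**Figure D4:**
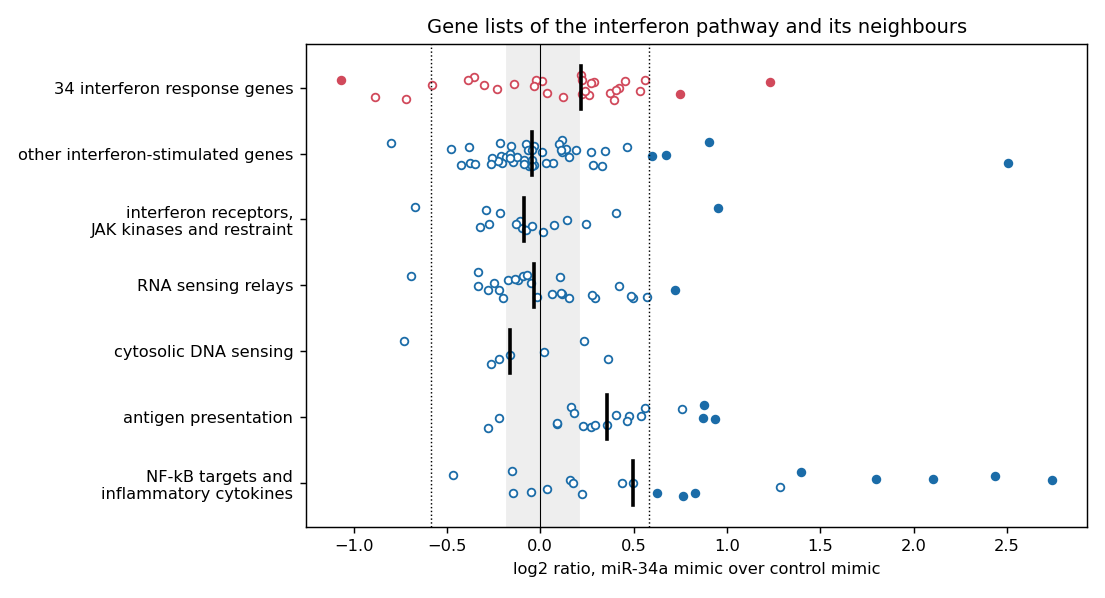
Log2 ratio of miR-34a mimic over control mimic for each tested gene of the interferon response list (red) and 6 neighbouring lists (blue), with black bars at the list medians, filled points for genes called, a grey band for the middle 50% of all genes and dotted lines at 1.5-fold. The medians are 0.22 for the interferon response genes, 0.50 for NF-kB targets, 0.35 for antigen presentation and between -0.16 and -0.03 for the other 4 lists. On the deposited RPKM scale all points lie 0.64 lower and all 7 medians are below 0, as is that of all genes (-0.65).

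Some marker genes of other cells also differed between the mimic libraries. The list of leukocyte markers had 3 of 8 called higher (37.5%, against 6.8% of all genes). Among them were CD68 with 185 and 618 reads and LCP1 with 18 and 54. The 1 called lower (against 2.45% of all genes), HBA1 with 81 and 28 reads, encodes haemoglobin and is not a leukocyte gene. The summed reads of the list were 11.3 CPM in the control and 22.9 in the miR-34a library. Without CD68 the sums, which still hold HBA1, were 332 and 351 reads. CD14 had 18 and 6 reads and LYZ 133 and 139. The defining marker PTPRC, CD3E, MS4A1 and the haemoglobin gene HBB had no row. All 10 HEK293 markers had a row, KRT8, KRT18 and VIM with most reads. Of the 10, 1 was called higher (10%, against 6.8% of all genes), NEFL (0.86), and 1 lower (against 2.45%), EYA1 (-0.87). The part of these marker differences in the results above was not tested. As a check of the arms, 2 of 20 published miR-34a targets tested with the mimic were called lower (against 2.45% of all genes). They were PDGFRA (-1.11) and CCNE2 (-0.62). More of the 20 were called higher, 5 (25%, against 6.8% of all genes), from AXL (0.75) through SNAI1, CD44 and FOSL1 to MYCN (2.60). The median of the 20 was -0.13, and 13 ratios were below 0. Why some targets were higher was not tested. Of 13 in the pulldown 5 were called higher (38.5%, against 6.08% of all genes) and 0 lower (against 2.96%).

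In the pulldown, none of the 10 interferon response genes with enough reads was called in either direction, by the 1.5-fold rule or by the interval alone. Of all 6253 genes tested, 6.08% were called higher and 2.96% lower, or 7.08% and 3.66% by the interval alone, so a count of 0 among 10 lies near the background. Their median log2 ratio was -0.19, against 0.11 over all genes. On the deposited RPKM scale it was 0.08, against 0.38 over all genes. Depth was 306996 reads in the control and 546180 in the miR-34a pulldown, against 45493090 and 42679778 in total RNA, and the intervals were wide, from 1.24 to 5.56 on the log2 scale. MAVS alone had an interval within 2-fold.

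MAVS had 73 reads in the control pulldown and 124 in that of miR-34a (-0.03 [-0.64 to 0.60]). OAS3 had 56 and 76 reads (-0.36 [-1.10 to 0.40]) and IRF3 21 and 28 (-0.38 [-1.64 to 0.93]). These were the members with most pulldown reads, and none departed from 1 beyond counting error. STAT2 had 5 and 23 reads (1.41 [-0.62 to 4.17]) and IRF1 4 and 17 (1.29 [-1.01 to 4.55]), the ratios farthest above 0. IFITM3, with 17 and 13 reads, was farthest below (-1.18 [-2.91 to 0.47]); with counts not divided by 2 its interval excluded 1 and it was called lower. B2M had 10 and 23 reads (0.41), HERC5 8 and 14 (0.01), EIF2AK2 11 and 14 (-0.45) and IFITM2 10 and 12 (-0.53). BST2 had 4 and 4 pulldown reads and IFITM1 2 and 5, so the genes called higher with the mimic gave no usable ratio there, and MX1 had no row. Of the 53 tested genes of the neighbouring pathway lists 3 were called higher in the pulldown (5.66%, against 6.08% of all genes) and 1 lower (against 2.96%). They were PTPN11, a phosphatase of receptor signalling, with 26 and 154 reads (1.77 [0.91 to 2.74]), TNFAIP3, a brake on NF-kB, with 3 and 28 (2.43 [0.07 to 6.34]), PQBP1, a cofactor of DNA sensing, with 36 and 116 (0.89), and, lower, the interferon-induced helicase gene HELZ2 with 39 and 23 (-1.56).

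How many reads a gene gave in a pulldown was set beside the number its share of total RNA in the same arm would give at that pulldown's depth. The tables were made separately, so this is a description. B2M was below that number in both pulldowns, with 10 reads against 55.2 in the control and 23 against 112 with miR-34a, ratios of 0.18 and 0.20. OAS3 was above it in both, with 56 against 19.4 and 76 against 39.5, ratios of 2.89 and 1.93. MAVS was close to it, at 0.96 and 0.91. Over all genes with at least 10 reads at that share the median ratio was 0.70 in the control and 0.73 in the miR-34a pulldown, with quartiles of 0.37 and 1.15, and of 0.41 and 1.16. OAS3 thus lay at percentile 98.7 and 93.8, and B2M at 8.4 and 10.3. Each was on the same side of the median in the control pulldown as in the miR-34a pulldown. The 14 members with a row for total RNA but none for the pulldown had shares worth 0.01 to 1.94 control pulldown reads. BST2, DDX58, ISG15 and IFIT1 were listed with shares worth 0.80 to 1.78, so the ranges overlap. Whether depth explains the missing rows was not tested.

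**Figure D5:**
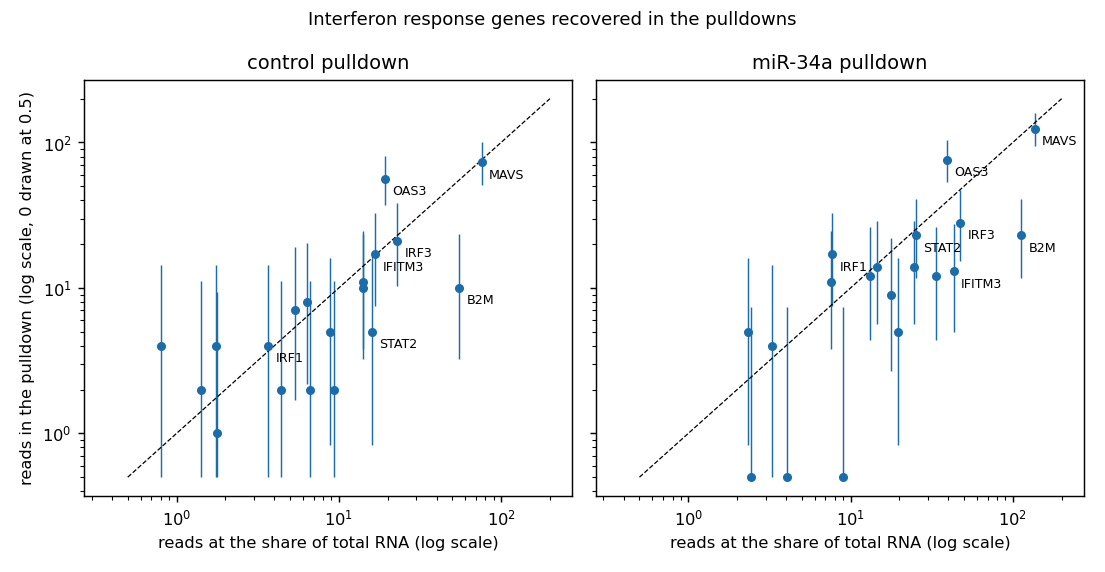
Reads of interferon response genes in the control and miR-34a pulldowns (vertical, log scale, 0 drawn at 0.5) against the reads their share of total RNA in the same arm would give (horizontal, log scale); bars are 95% exact Poisson intervals on halved counts, cut at 0.5, and the dashed line marks equality. OAS3 lies above the line and B2M below it in both panels.

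The further deposited tables named for the UTR, for which the sources used here give no criterion, held 8 of the 33 listed members (24.2%), close to the 25.1% of all genes with a row. They were MAVS, IRF3, IRF1, IFIT1, OAS3, MX1, IFI44 and IFI44L. Their median log2 ratio with the mimic was 0.23, against 0.17 for the 22 tested members outside. In the pulldown 5 of 19 were in that subset (26.3%, against 27.0% of all genes), with medians of -0.19 for 4 tested members inside and -0.22 for 6 outside.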

How the data were processed

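The authors deposited read counts per RefSeq transcript as whole numbers, not normalized, with an RPKM value beside each. Bowtie2, edgeR and hg38 are named in the submitters' processing notes, with no role or version. The sources used here give no counting rule, strand handling or filter. In the deposited RPKM values 1 read is worth 0.694 times as much in the miR-34a as in the control library in both tables, and the length they imply is the same for all transcripts of a member and as short as 48.1 bases (IFITM1, at the control mimic total), so RPKM served only as an alternative scaling and levels were not compared between genes.

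Each gene's reads are the sum over its listed transcripts, and names turned into dates were resolved through accessions in the GRCh38.p14 RefSeq table, except for 2 transcript rows, which no list used here holds. Totals were scaled with TMM factors over all listed genes (edgeR 4.0.16, R 4.3.3). Log2 ratios were taken for genes with at least 20 reads. The 95% intervals are exact conditional binomial (Clopper-Pearson) intervals (scipy 1.17.1) on counts divided by 2, since 96.0% of low control counts of genes with 1 transcript in the mimic table were even, as when a read pair counts as 2 reads. In the pulldown table this share was 73.5% at 2 to 9 reads and 52.3% at 10 to 49. Intervals cover counting error only. The procedure was tested on simulated counts drawn as read pairs, so that every count was even. Pulldown counts of 10 to 49 reads did not have that pattern, so the simulation cannot test the halving there.

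The members and lists were chosen with earlier results of these data known. Any member may be named; of other lists, up to 4 called genes farthest from 0, and any other gene was named after its values were seen. Alternatives were 3 scalings, other read minimums, folds and intervals, undivided counts, and the transcript with most reads; TMM factors from genes with at least 20 reads were added after seeing the data. Some genes of the neighbouring lists are not reported here by name.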

Additional observations from a re-analysis of the deposited data

How the results depend on the processing

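The limits are 1 library per group, low pulldown counts and a table that lists only transcripts with a control read. No paired analysis was possible because each group has 1 library, and leaving out a replicate was not possible for the same reason. In the mimic comparison, the deposited RPKM ratio gave 1 member higher and 12 lower, a member median of -0.42, 196 genes higher and 8177 lower in all, and 5 higher and 58 lower among the other pathway lists, against 2, 1, 0.22, 1006, 363, 17 and 0 as reported. A 2-fold threshold gave 1 member higher, 487 and 153 genes in all and 6 higher in the other lists. Without a fold threshold the counts were 12 and 5 members, 3742 and 3412 genes, and 42 and 18 in the other lists. Lower members numbered 2 on library totals (IRF9 added), 2 with undivided counts (IFI27 added) and 0 with the 99% interval; with the transcript of most reads the count stayed at 1 but IRF9 took the place of MX1, whose 2 top transcripts tie, and the member median was 0.13. Lower genes of the other lists numbered 1 on library totals and 2 with undivided counts. In the pulldown, deposited RPKM moved the member median from -0.19 to 0.0757, all genes to 775 higher and 80 lower, and the other lists to 9 higher. Undivided counts gave 1 member lower, 818 and 469 genes, and 7 higher and 4 lower in the other lists. The 99% interval gave 200 and 87 genes and 1 higher in the other lists, at least 50 reads 122 genes lower, the transcript with most reads 1 higher in the other lists, no fold threshold 2 lower there, and TMM factors from genes with at least 20 reads 3 lower there, against 380, 185, 3 and 1 as reported. The causes were not tested, except that RPKM shifts all ratios alike. BST2 was called higher under each of these alternatives, but on deposited RPKM its log2 ratio of 0.58497 only just reached 1.5-fold.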
